A study of Homo sapiens with 5 samples.

Results

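The MYF5 and MYF6 locus on chromosome 12 was described from ChIP-seq of RH18 and RD, permanent human lines grown from fusion-negative rhabdomyosarcoma, a cancer whose cells resemble immature skeletal muscle. Its members were all listed regions that overlapped an hg19 window of 450 kb, chr12:80800000-81250000, which holds MYF6 at 81.101 to 81.103 Mb, MYF5 at 81.111 to 81.113 Mb and the stretch upstream of them. Membership rested on position alone, and was set with earlier results of these data known. There were 40 such regions of 100703 in the 3 lists together: 4 of 11136 in the list of MYF5 binding in RH18, 12 of 46408 in the list of acetylated histone H3 lysine 27 (H3K27ac) in RH18, and 24 of 43159 in the H3K27ac list of RD. Gene bounds are given to 1 kb, so distances from a gene start are as coarse as that.

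The labels give 5 samples: MYF5, H3K27ac and input DNA in RH18, and H3K27ac and input DNA in RD. The labels name no treatment of either line. Both were grown in DMEM with 10% serum and antibiotics and fixed in 1% formaldehyde for 12 minutes. Each group was 1 library, so no value below has a replicate check, lines and libraries cannot be told apart, and intervals cover counting error only. The input samples, and any RNA of these lines, were not analysed here, so expression of MYF5 or MYF6 was not read. The muscle identity of the lines could be looked at only at this locus, since the starts of other muscle genes were not placed in hg19 here.

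MYF5 and MYF6 (also called MRF4) belong with MYOD1 and MYOG to the myogenic regulatory factors, basic helix-loop-helix proteins that pair with E proteins and bind E-boxes, written CANNTG. In vertebrate embryos MYF5 and MYOD1 commit cells to muscle, MYOG drives differentiation, and in the mouse Mrf4 acts both early and in mature fibres. Mouse Myf5 and Mrf4 lie side by side and are switched on by many separate enhancers spread over a long stretch upstream, each used at other sites or stages of the embryo. H3K27ac is laid down on nucleosomes of active enhancers and promoters.

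The promoters of the pair are shown because the regions of highest fold of the locus in RH18 lay on or beside these genes. The 250 bases before each RefSeq start are given 5′ to 3′, with E-boxes and the letters TATAAA in capitals. Their coordinates are of another build than the regions and must not be set against them.
MYF6 (chr12:80707384-80707633, GRCh38.p14, plus strand): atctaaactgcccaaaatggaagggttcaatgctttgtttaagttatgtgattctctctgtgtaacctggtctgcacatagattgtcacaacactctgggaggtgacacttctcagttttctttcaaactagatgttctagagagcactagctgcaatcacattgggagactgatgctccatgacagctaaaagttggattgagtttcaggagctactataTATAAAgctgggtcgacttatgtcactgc
MYF5 (chr12:80716662-80716911, GRCh38.p14, plus strand): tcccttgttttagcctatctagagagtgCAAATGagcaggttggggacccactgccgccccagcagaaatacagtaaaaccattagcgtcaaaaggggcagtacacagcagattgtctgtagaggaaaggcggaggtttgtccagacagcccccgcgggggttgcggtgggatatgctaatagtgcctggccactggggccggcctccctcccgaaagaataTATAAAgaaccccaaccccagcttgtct
Each promoter held 1 TATAAA, starting 29 bases before the start of MYF6 and 28 bases before that of MYF5. These letters were picked after the sequences were seen. Over 27305 RefSeq promoters of 300 bases (250 before and 50 after the start), 12.0% held TATAAA on either strand. The MYF5 promoter held 1 E-box, CAAATG, starting 222 bases before the start, and MYF6 held 1, CATCTG, starting at base 14 of the transcript and so beyond the part printed. Of all promoters, 68.9% held at least 1 CANNTG, so its presence does not set the pair apart. Neither promoter held CAGCTG (17.7% of all promoters) or CAGGTG (20.6%), both of which are also counted as CANNTG. Among a list of 21 genes of the myogenic network, 15 had a promoter in the table. Of these, 10 (66.7%) held CANNTG, 3 (20.0%) held CAGCTG, 1 (6.67%) held CAGGTG and 3 (20.0%) held TATAAA, the last being MYF5, MYF6 and ID1, an inhibitor of basic helix-loop-helix factors. The sequences under the regions themselves were not used here.

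In RH18, H3K27ac had its highest folds on and beside the genes themselves. A tag is 1 sequenced read counted at a summit, recovered from the deposited values, and the fold is the authors' enrichment over local background. The region on MYF6, chr12:81101425-81102944, was 1520 bp wide and had 312 tags at its summit (Poisson 95% interval 278 to 349) and a fold of 112. It ranked 39 of 46408 regions by fold and 313 by tags, so few acetylated regions of this line stood higher. The next region, chr12:81103524-81104165, began 579 bp further on, past the end of MYF6, with 218 tags (190 to 249), a fold of 78.7 and rank 551. Between the genes lay chr12:81107803-81108316, with 147 tags (124 to 173) and a fold of 53.2. At the start of MYF5 lay chr12:81110480-81111443, 964 bp wide, with 141 tags (119 to 166) and a fold of 51.0. The summits thus held more tags at MYF6 than at MYF5, by intervals that do not overlap. All 4 regions sat at the lowest local background of the list (1.00 times), and none overlapped an RD region.

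MYF5 protein was listed at 3 sites within this same cluster in RH18. At the start of its own gene, chr12:81110559-81111050 had 55 tags (41.4 to 71.6) and a fold of 12.4, and lay wholly inside the acetylated region there, with its summit 221 bp from the H3K27ac summit. The local background under it was 1.95 times the lowest of the MYF5 list, and 1.000 times under the other 3 peaks of the window. Past the end of MYF6, chr12:81103682-81104387 was 706 bp wide and had 37 tags (26.1 to 51.0) and a fold of 12.499. Its summit, at base 81104166, fell on the base next to the end of the acetylated region it overlapped by 484 bp. On MYF6, chr12:81101711-81102054 had 24 tags (15.4 to 35.7) and a fold of 8.28, with its summit 82 bp from that of the H3K27ac region of highest fold of the locus. The acetylated region between the genes held no MYF5 peak. By tags the marks ran in unlike order, since MYF5 had its most tags at MYF5 and H3K27ac at MYF6. By fold the MYF5 peaks past the end of MYF6 and at MYF5 were close, at 12.499 and 12.391. The tag intervals of the MYF5 peaks with 55 and 24 tags do not overlap, while that of the peak with 37 tags overlaps both. None of these peaks was high within its list, with ranks by fold of 4390, 4220 and 8905 of 11136. No control immunoprecipitation was analysed here.

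In RD, neither gene carried a listed acetylated region. The nearest, chr12:81096469-81097182, ended about 4 kb before the start of MYF6 and 4242 bp before the RH18 region on that gene. It was the widest RD region of the window at 714 bp, had 145 tags (122 to 171) and a fold of 20.3, and ranked 2386 of 43159 by fold. No RH18 region was listed there, and no MYF5 peak, whose nearest summit lay 4573 bp away. The lines thus differed in which side of the MYF6 start was listed, on the genes in RH18 and upstream in RD. A missing region means that no peak was listed. RH18 H3K27ac regions were listed down to a −log10 p-value of 7.09 and 15 tags, and RD regions down to 5.00 and 23 tags, so the lists did not end at 1 common threshold.

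**Figure D1:**
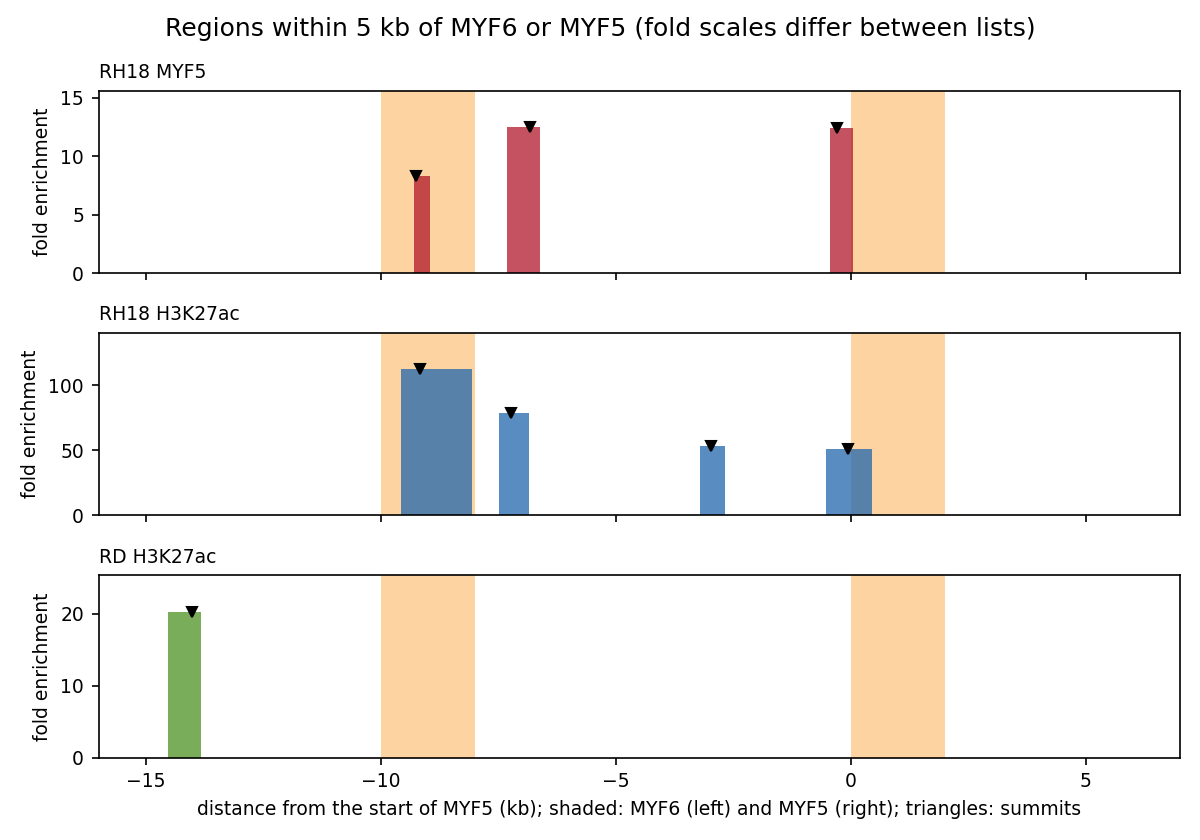
Fold enrichment of the regions within 5 kb of MYF6 or MYF5 against distance from the start of MYF5 in kb, for MYF5 in RH18 (top), H3K27ac in RH18 (middle) and H3K27ac in RD (bottom), with bar width as region width, triangles at summits and genes shaded. The 4 RH18 H3K27ac regions, of fold 51.0 to 112, and the 3 MYF5 peaks lie on or between the genes, while the single RD region lies upstream of MYF6; the fold axes are not on one scale.

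Upstream of the genes the lines were the other way round in number, with 8 H3K27ac regions in RH18 and 23 in RD more than 5 kb from either gene. In RH18 they lay 124 to 181 kb before the start of MYF5, and no region was listed over the next 115 kb, up to MYF6. The highest by tags was chr12:80974986-80975537, with 167 tags (fold 23.3), followed by chr12:80959794-80960588, with 155 tags and the highest fold of the group, 40.5. Both had more tags than the region on the start of MYF5, but their intervals (143 to 194 and 132 to 181) overlap its own (119 to 166). Their folds were lower, over local backgrounds of 3.79 and 1.68 times the lowest. The pair furthest upstream, chr12:80929564-80929935 and chr12:80931542-80932017, had 63 and 103 tags. The remaining 4 had 21 to 49 tags, with the fewest at chr12:80955250-80955470 (fold 7.97). All 8 upstream folds, 5.44 to 40.5, lay below the 4 at the genes, but their tags, 21 to 167, overlapped those at the genes.

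The RD regions upstream were many and narrow. They were 167 to 422 bp wide (median 243) and had 40 to 161 tags (median 78.0) and folds of 3.58 to 18.1, beside medians of 358 bp and 85.0 tags over the whole RD list. Clusters of them stood 116 to 136 kb and 81 to 92 kb before MYF5. The second of these clusters, 7 regions from 81018652 to 81030407, fell inside the 115 kb in which RH18 had none. Its highest member, chr12:81028726-81029024, had 118 tags and a fold of 16.6, and lay 41.9 kb from the nearest RH18 region. The first cluster held chr12:80975056-80975454, with 161 tags the highest of the window in RD but with a fold of only 5.61 over a background 11.0 times the lowest. It also held chr12:80992137-80992484, with 105 tags and a fold of 18.1, which came next after the region before MYF6 in fold. The other RD regions among the 10 of highest fold had folds of 12.2 to 16.6, and stood at 67, 81, 82, 92, 119, 135, 165 and 243 kb before the start of MYF5.

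**Figure D2:**
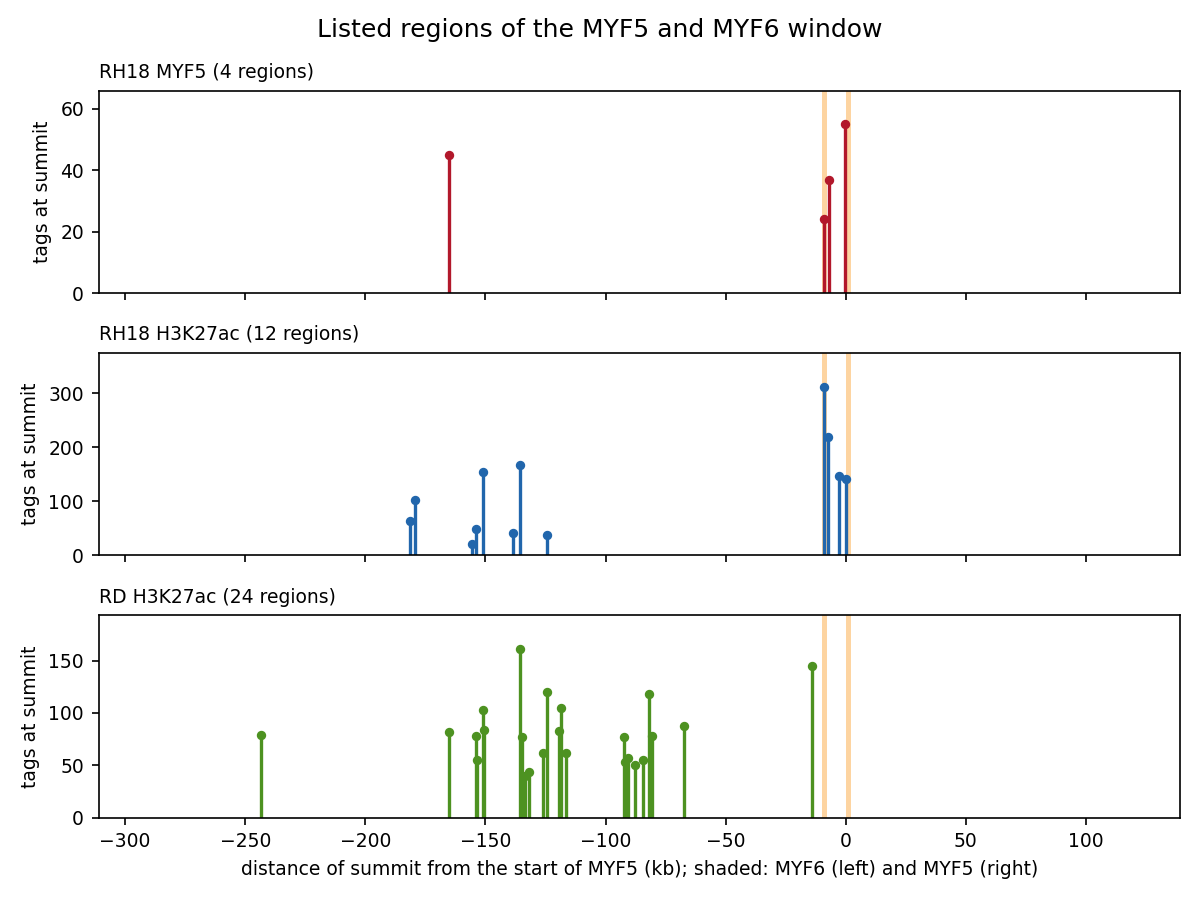
Recovered tags at each summit against distance from the start of MYF5 in kb, for MYF5 in RH18 (top), H3K27ac in RH18 (middle) and H3K27ac in RD (bottom); genes are shaded and tag axes are not on one scale. RH18 H3K27ac has its tallest lines at the genes (up to 312 tags) and none between 124 and 9 kb upstream, RD fills part of that gap, and no list has a region after MYF5.

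The region sets of the lines met at 4 places. Of the RH18 regions, 4 of 12 (33.3%, exact Clopper-Pearson 95% interval 9.92 to 65.1%) overlapped an RD region by at least 1 bp, where 45.1% did over the whole list. Of the RD regions, 5 of 24 (20.8%, 7.13 to 42.2%) overlapped an RH18 region, where 60.0% did over the whole list. The interval of the RH18 share takes in its whole-list value, while that of the RD share lies below it. Neighbouring regions of 1 library are not independent, so the interval is a guide only. Shared bases came to 1381, which is 19.9% of the bases listed in RH18 and 20.7% of those in RD.

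Where the lines did meet, summits lay 10 to 42 bp apart at 4 of the 5 overlapping pairs and 381 bp apart at the other. At 154 kb upstream, chr12:80956996-80957271 in RH18 had 49 tags and chr12:80956997-80957290 in RD had 78, with summits 10 bp apart. At 136 kb upstream, the RH18 region had 167 tags and the RD region 161, with summits 28 bp apart, and each was the highest upstream region of its own line by tags. At 124 kb upstream, chr12:80986579-80986857 in RH18 had 38 tags and chr12:80986614-80986829 in RD had 120, with summits 30 bp apart. At 151 kb upstream, the RH18 region of 155 tags contained 2 RD regions, chr12:80959905-80960228 with 103 tags, whose summit lay 42 bp away, and chr12:80960399-80960565 with 84 tags, whose summit lay 381 bp away. Tags of different libraries are not on one scale, since total reads are not given in the sources used here, so these pairs show place and not strength. A further RD region, chr12:80957390-80957575, lay 118 bp from an RH18 region, so 6 of 24 were within 500 bp of one, where 66.6% of the whole RD list were.

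Most of the shared RD regions had raised local background. How often shared and unshared regions are raised over the whole RD list was not counted, so this cannot be called particular to the locus. In multiples of the lowest of its list, the recovered background was 7.84, 7.84, 11.0 and 4.70 under 4 of the 5 shared RD regions and 1.35 under the other. Those at 7.84 lay inside the same RH18 region, so they are 1 place. Among the 19 unshared RD regions it was 6.27 times at chr12:80984953-80985222 and at most 1.57 times at the rest. In RH18 the shared regions had 1.68 to 3.79 times the lowest, the unshared ones upstream 1.00 to 3.79 times and the 4 at the genes 1.00 times. None of the window's 12 RH18 regions reached 4 times, the mark used here for raised, where 10.1% of the whole list did. The lowest itself differed between the lists, at 1.319 pileup units in RH18 and 0.638 in RD. The mark of 4 times is thus not the same background in both lines. Leaving out RD regions at 4 times or more left 1 of 12 RH18 regions (8.33%) and 1 of 19 RD regions (5.26%) shared. Whole-list shares under this filter were not computed. In RD, 5 of the window's 24 regions (20.8%) were raised, where 31.9% of the whole list were. What the background contributes to the overlap was not tested.

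**Figure D3:**
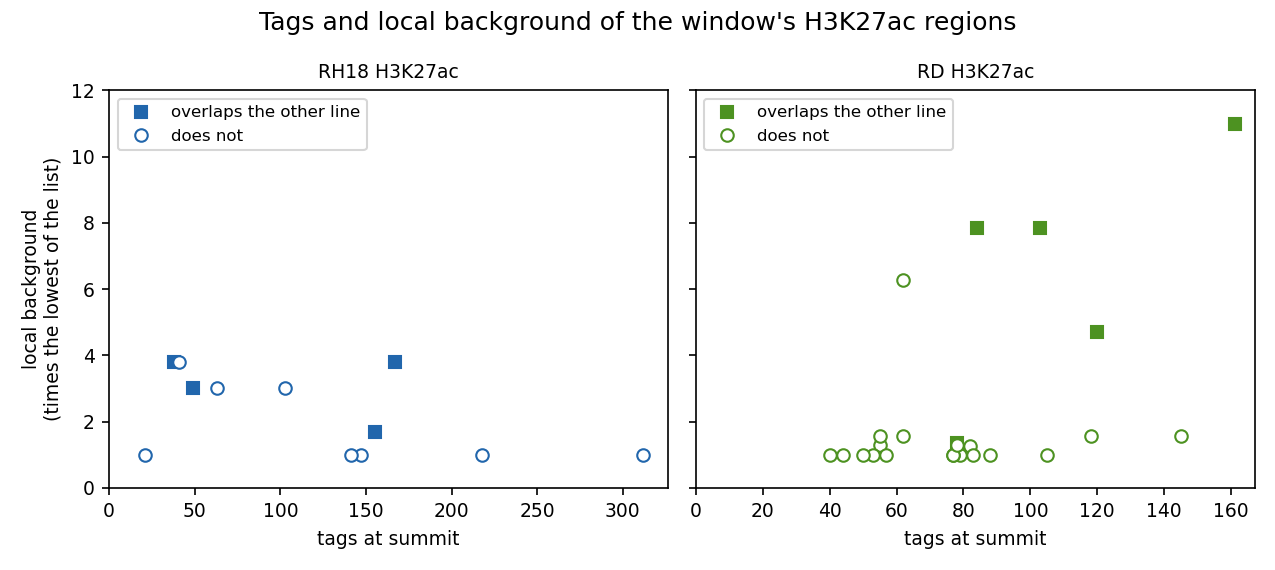
Local background, in multiples of the lowest of the list, against tags at the summit for the 12 RH18 (left) and 24 RD (right) H3K27ac regions of the window, filled squares where a region overlaps one of the other line and open circles where it does not. In RD, 4 of the 5 shared regions have a background of 4.70 or more, against 1 of 19 unshared regions. The same split over the whole RD list was not counted. The lowest is in units that differ between the lists, so the backgrounds of the panels are not on one scale.

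A single MYF5 peak lay away from the genes, and it sat on chromatin that was listed as acetylated in RD and not in RH18. This peak, chr12:80945895-80946100, was narrow (206 bp) and stood 165 kb before the start of MYF5, with 45 tags (32.8 to 60.2) and a fold of 15.1, the highest of the 4. It overlapped the RD region chr12:80945920-80946159 (82 tags, fold 13.0) by 181 bp, with summits 23 bp apart. The nearest RH18 H3K27ac region was 9248 bp from its summit. It was the only 1 of the 4 MYF5 peaks of the window with its summit in a region of RD and none of RH18, a combination that 6.38% of all MYF5 summits had; the other 3 overlapped RH18 regions and no RD region. No MYF5 library of RD was analysed here.

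Counted together, 2 of the 4 MYF5 peaks (50%, 6.76 to 93.2%) had their summit in acetylated chromatin of RH18, where 55.2% of the whole list did, and 1 of 4 (25%, 0.631 to 80.6%) in that of RD, where 39.9% did. With 4 peaks, these shares cannot be told from those of the list. With peaks that merely overlap a region counted, the RH18 figure was 3 of 4. The whole-list share by that criterion was not computed, and 55.2% is not its match. Seen from the acetylated regions, 2 of 12 (16.7%) held a MYF5 summit in RH18 and 1 of 24 (4.17%) in RD, where 12.0% and 9.71% did over the lists.

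The division between genes and upstream stretch can be set out as shares within each library, which need no total read number but do move with how many regions were listed. Within 5 kb of either gene lay 818 of the window's 1455 summit tags in RH18 H3K27ac, or 56.2% (53.6 to 58.8%), and 145 of 1956 in RD, or 7.41% (6.29 to 8.66%). In bases, the parts at the genes made up 52.4% of the listed bases of the window in RH18 and 10.7% in RD, although the totals of 6942 and 6677 bases were close. Mean tags per region were 204.5 at the genes and 79.6 upstream in RH18, and 145 and 78.7 in RD. For MYF5 the part at the genes was 116 of 161 tags, or 72.0% (64.4 to 78.8%). The RD figure rests on the single region before MYF6, and with a margin of 2 kb around the genes it was 0, while the RH18 figures stayed as they were.

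Joined across gaps of up to 12500 bp, the 4 RH18 regions at the genes formed a domain of 10.0 kb, from 81101425 to 81111443, that overlapped 3 MYF5 peaks and contained all their summits. By the sum of fold times width it ranked 482 of 18842 domains, or within the top 2.56%. The RH18 domain upstream, from 80955250 to 80986857, was longer at 31.6 kb but ranked 4486. In RD the highest domain of the window spanned 19.8 kb, from 80975056 to 80994829, with 9 regions, and ranked 2586 of 16671. The region before MYF6 stood alone and ranked 4504. The ranks hold within each list only. With joining at 25 kb, 22 RD regions became 1 domain of 97.9 kb, from 80945920 to 81043774, of rank 869 among 13288.

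**Figure D4:**
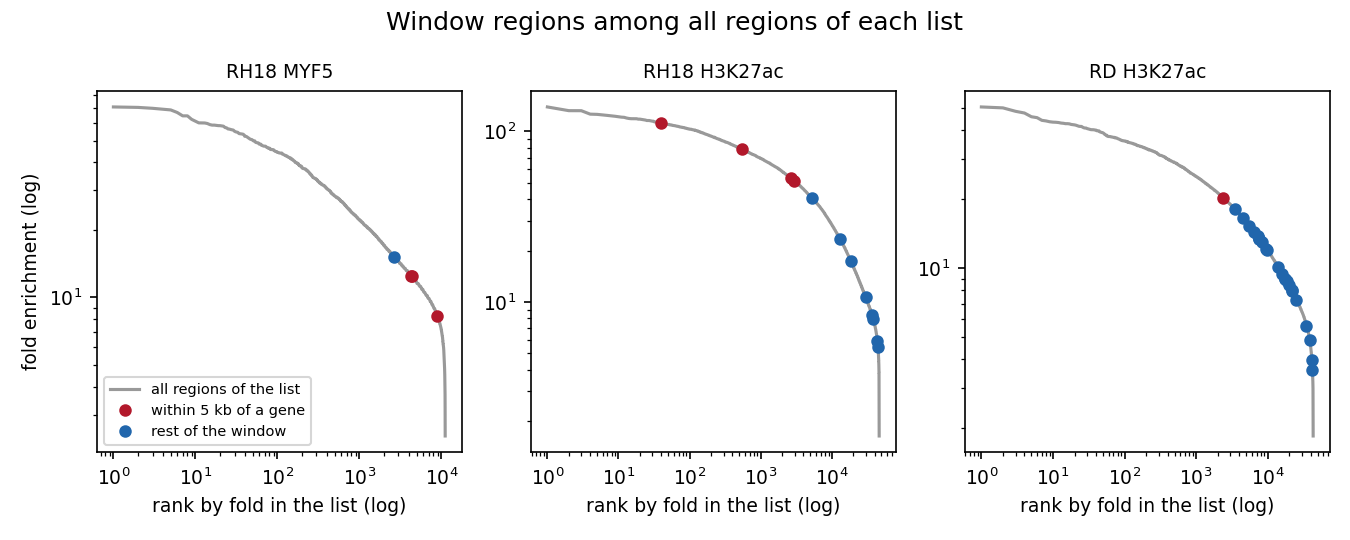
Fold enrichment against rank by fold, both on log axes, for all regions of each list (grey line) with the window's regions marked as within 5 kb of a gene (red) or in the rest of the window (blue). In RH18 H3K27ac all red points lie above all blue ones and the highest ranks 39; in RD the single red point ranks 2386, and the MYF5 peaks rank 2649 or lower.

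After MYF5 the locus was empty. No list had a region between the end of the RH18 region on the start of MYF5, at 81111443, and the edge of the window. The body of MYF5 beyond its start, and the stretch after it, were thus without a listed region in both lines. RefSeq's order of protein-coding genes puts LIN7A next on this side and PTPRQ on the other. The bodies of these neighbours were not placed in hg19 here, so whether they hold listed regions was not read. Measured from that edge, the next region outside was 1502 kb away in RH18 H3K27ac (fold 62.5, 224 tags). In RD it was 80.2 kb away, chr12:81330216-81331870 (fold 6.20, 201 tags). On the upstream side, the outermost region inside the window was chr12:80867604-80867858 of RD (79 tags, fold 13.8). The nearest outside lay 362 kb beyond the upstream edge of the window in RH18 H3K27ac and 470 kb beyond it in RD. Within the window, H3K27ac regions stood at 26.7 per Mb in RH18 and 53.3 per Mb in RD, and MYF5 peaks at 8.89 per Mb, beside 17.1, 18.9 and 4.92 per Mb over the span of chromosome 12. The local background under the RH18 H3K27ac regions had a median of 2.35 times the lowest in the window and 1.52 times over chromosome 12, where 15.2% of regions reached 4 times or more.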

How the data were processed

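Peak lists of 3 ChIP libraries were used, 1 per library. The submitters' processing notes name BWA 0.7.10, MACS2 2.1.0 and the hg19 build but give no roles, control or threshold. In the deposited lists the authors give every peak a summit, a fold (a ratio to local background) and −log10 values of p and q. Their deposited score repeats the −log10 p on another scale and was left aside. Entries number 39 (MYF5), 70 (RH18 H3K27ac) and 49 (RD) fewer than their highest peak number, so some had been removed.

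Tags and background at each summit were recovered from fold and p by the formulas of MACS2, where fold is pileup plus 1 over background plus 1 and p is a Poisson tail. A tag was worth 0.658, 0.832 and 0.273 pileup units in the MYF5, RH18 H3K27ac and RD lists, so folds were not compared between lists. A single solution existed for 9073, 42880 and 23609 peaks, and of these 100.0% in each list came out as whole tags, within 0.1, where chance gives 20.0%. Peaks with several solutions took the nearest whole tag. Tested on simulated peaks of the same formulas, 100.0% came back in each list. The simulation left out the largest −log10 p values, which were solved by a separate step. It thus did not cover the RH18 H3K27ac regions on MYF6 (−log10 p 485.9) and past its end (312.5). Whether the background came from the input samples is not given.

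Overlaps were of at least 1 bp. Intervals are exact Clopper-Pearson for shares and Poisson for tags, at 95%. With 1 library a group, no test was made. Named regions were all MYF5 peaks, the 10 H3K27ac regions of highest fold per line and those within 5 kb of a gene or holding a MYF5 summit; others were picked after their values were seen. Members and lists were chosen with earlier results of these data known. Promoters came from RefSeq (GRCh38.p14); regions at other muscle genes were not counted, since no hg19 annotation was used. Software was Python 3.11.15 with numpy 2.4.6, pandas 2.3.3, scipy 1.17.1 and, for plots, matplotlib 3.10.9.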

Additional observations from a re-analysis of the deposited data

How the results depend on the processing

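Of 45 alternatives, 35 values stayed within the main interval or within 1.5 times the main count, and 10 moved; the alternatives on raised background, on the lowest RH18 p-value and on the margin around the genes were chosen after seeing the data. Without RD regions of raised background, the share of RH18 regions that overlapped an RD region was 8.33% and the reverse share 5.26%. Whole-list shares without those regions were not computed. With a 2 kb margin around the genes, their part of the RD summit tags was 0%. Domains of the window numbered 5 in RH18 with joining at 5 kb, against 3 at 12500 bp, and 3 in RD with joining at 25 kb, against 6. The RH18 region of highest fold ranked 78 by −log10 p and 313 by tags, the MYF5 peak of highest fold 4759 by tags and the RD region of highest fold 8342 by tags. Leaving out RD regions cannot raise the RH18 share, and a narrower margin cannot raise the part at the genes. A longer joining distance cannot raise the number of domains, and a shorter one cannot lower it. The reverse share does not fall by construction, since the RD regions left out also leave its total. It went from 5 of 24 regions to 1 of 19, as most of the shared RD regions were among those left out. Why those regions were raised, and the cause of the changes in rank, were not tested. Asking for an overlap of 50% of both regions left 3 of 12 RH18 and 3 of 24 RD regions shared. Whole-list shares by that criterion were not computed. A −log10 q of at least 10 left 21 of the 24 RD regions and all regions of the other lists in the window. No paired analysis was possible because each group is 1 library. Unknown depth and unlike list thresholds limit what a missing region shows.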
